A study of Saccharomyces cerevisiae with 7 samples.

Results

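The chromatin occupancy of the yeast histone demethylase Rph1 was examined at 7 of 731 ChIP-seq peaks, those assigned to the genes CIT1, IDH1, PYC1, COR1, ALD4, ALD6 and ACS1 of central carbon metabolism on lactate. The peaks were chosen by the gene given to each, from a table of peaks, with earlier results of the same signal values (levels and changes between these groups) known. Their heights and changes are therefore descriptions of chosen peaks, and the p-values, from a fit over all 731 peaks, are no independent support for the choice. In the table the peaks are chrXIV_628228_634839 (CIT1), chrXIV_557240_561414 (IDH1), chrVII_383144_389477 (PYC1), chrII_133469_138284 (COR1), chrXV_1037252_1044014 (ALD4), chrXVI_430771_434815 (ALD6) and chrI_42195_45941 (ACS1), by chromosome, start and end in the sacCer2 build. All 7 gene symbols were found in the RefSeq gene table, each on the chromosome of its peak. That table is of the R64 build, so its coordinates were not set against the peaks, and whether signal lay over a promoter, a coding region or a neighbouring gene was not analysed here.

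Yeast turns lactate into pyruvate at the mitochondria. Pyruvate then feeds the tricarboxylic acid cycle directly, or is carboxylated to oxaloacetate, which refills the cycle and starts gluconeogenesis. Aldehyde dehydrogenases and acetyl-CoA synthetases form a second route, through acetate, to acetyl-CoA in the cytosol and nucleus. Rph1 removes methyl groups from lysines of histone H3 and also binds DNA through zinc fingers, and is known as a repressor of stress-responsive genes. Ppm1 is the methyltransferase that acts on the catalytic subunit of the phosphatase PP2A.

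All strains were CEN.PK, MATa, and carried RPH1 with an HA epitope tag and a hygromycin marker (HYG). The groups were wild type moved for 1 h into the synthetic lactate medium SL (2 libraries), a strain with ppm1 replaced by kanMX in the rich lactate medium YPL (2 libraries), a strain whose tagged Rph1 bears the substitution S412A in YPL (1 library), and wild type in YPL (2 libraries). S412A is alanine in place of serine at that residue of the protein. YPL is made from yeast extract, peptone and lactate. The labels of the SL libraries each name other components, yeast nitrogen base lacking amino acids for the first and ammonium sulfate with lactate for the second, and both were taken as 1 medium. Cells in YPL were in log phase. Nothing in the labels says that replicates came from separate cultures, so the spread between them may be technical, and nothing in the peak table checks the deletion or the substitution.

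The implied library totals, read from the step between values, were 13808893 to 34820208 reads. Between 5479 and 36489 implied reads fell in each of the 7 peaks in each library, a counting error of 0.524% to 1.35%, well under the differences between replicates. PCR duplicates are not separate molecules, so these errors and the interval given for a share further on stand for read counting alone. Peaks took 18.6% of the reads in the S412A library, against 19.7% to 24.1% in the other 6. Replicates differed by library-wide amounts: over all peaks the second SL library lay below the first by a median log2 difference of -0.23, and at the 7 peaks by -0.29 to -0.59. At the same 7 peaks the second ppm1Δ library was below the first (log2 -0.20 to -0.36) and the second wild-type YPL library was above the first (0.08 to 0.29).

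In wild-type YPL cells 6 of the 7 peaks were among the tallest of the genome and the ACS1 peak was of ordinary height. By signal per kb, which allows for the width of a peak, the ALD6 peak ranked 4 of 731, with 6082 ± 819 per kb (SD, n = 2). The IDH1 peak ranked 6 (4936 ± 199), the CIT1 peak 8 (4770 ± 477), the PYC1 peak 10 (4760 ± 464), the COR1 peak 23 (3928 ± 349) and the ALD4 peak 28 (3790 ± 305). The ACS1 peak ranked 289, with 2313 ± 325 per kb, near the median of 2158 over all peaks, whose range ran from 1164 to 25840. All 7 were wider than the median peak of 2528 bp, from 3747 bp at ACS1 to 6763 bp at ALD4. Together they covered 36492 bp, 1.69% of the length of all peaks.

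Peaks of this width can reach past the gene they are named for. In the RefSeq gene order DOM34 and the tRNA gene SUF10 flank CIT1, GPI15 and NCE103 flank IDH1, PUS2 and DUO1 flank PYC1, and PSY4 and YBL044W flank COR1. NUD1 and GDH1 flank ALD4, YPL062W and MFM1 flank ALD6, and PEX22 and FLC2 flank ACS1. Which of these neighbours lie under the peaks was not analysed here.

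**Figure D1:**
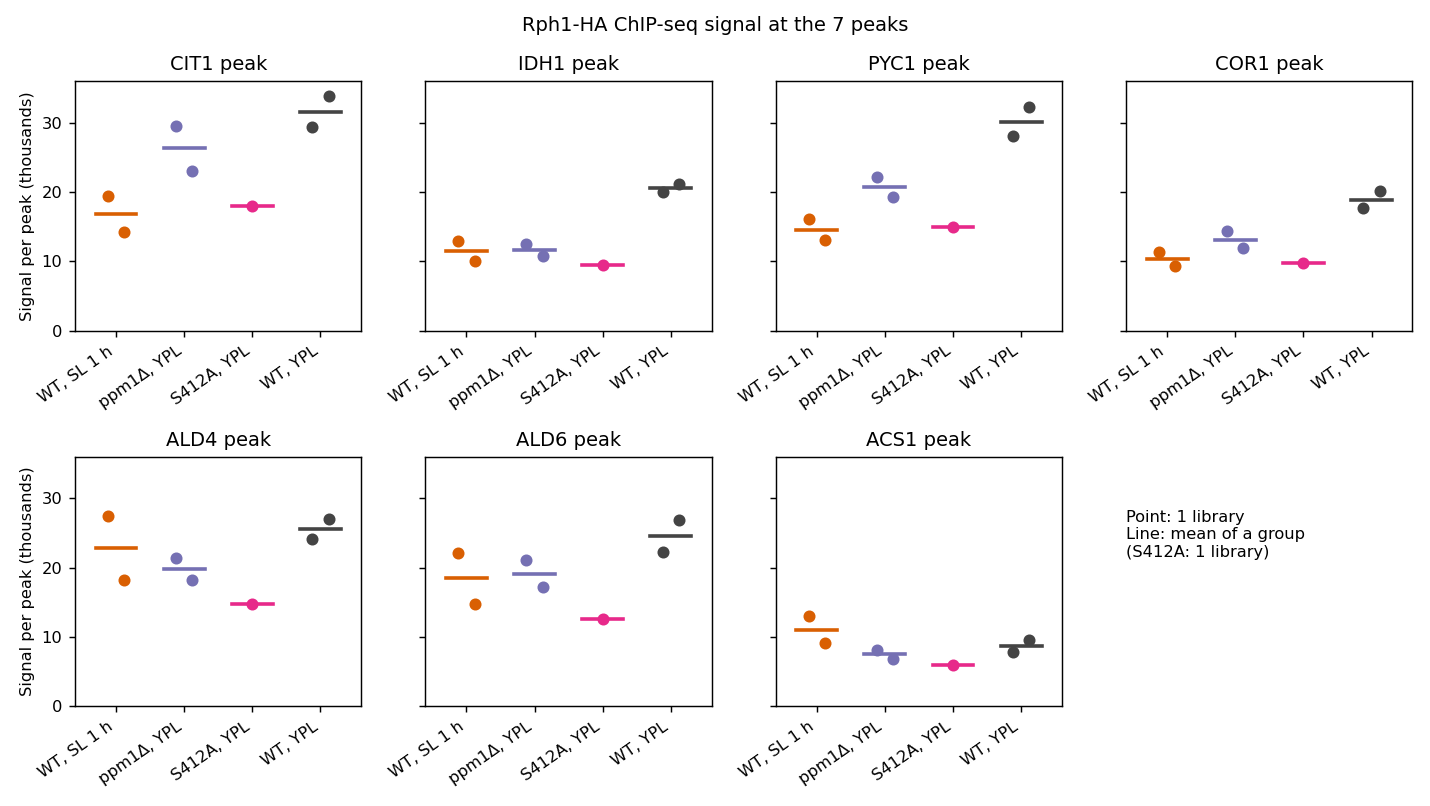
Deposited signal per peak (reads scaled to a common library size) at the 7 peaks in each group. Points are single libraries and lines are group means (n = 2, and 1 for S412A); 4 peaks (CIT1, IDH1, PYC1, COR1) stand well below wild type in YPL in both SL and S412A, while the ACS1 peak is the only 1 of the 7 with a higher mean in SL.

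CIT1 encodes the mitochondrial citrate synthase, the entry step of the tricarboxylic acid cycle. Signal at its peak was 19464 and 14283 in the SL libraries, 29578 and 23054 in the ppm1Δ libraries, and 18035 in S412A, against 29309 and 33771 in wild-type YPL libraries. Both SL libraries and the S412A library lay below every YPL and ppm1Δ library, and the ppm1Δ and wild-type YPL libraries overlapped. The peak fell in SL to 0.530 of the wild-type YPL level (log2 -0.92, SE 0.18, limma adjusted p = 2.5e-06) and in S412A to 0.573 (log2 -0.80, SE 0.22, adjusted p = 0.00569). In ppm1Δ the log2 difference was -0.27 (95% interval -0.62 to 0.09, limma adjusted p = 0.997).

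IDH1 encodes a subunit of the NAD-dependent isocitrate dehydrogenase of the cycle. Its peak held 12906 and 10124 in SL, 12450 and 10817 in ppm1Δ, and 9414 in S412A, against 20021 and 21194 in wild-type YPL. All 5 libraries outside the wild-type YPL group were below both of its libraries, with no overlap. The falls were to 0.555 in SL (log2 -0.85, SE 0.20, limma adjusted p = 6.8e-05), 0.563 in ppm1Δ (log2 -0.83, SE 0.20, adjusted p = 0.00342) and 0.457 in S412A (log2 -1.13, SE 0.24, adjusted p = 2.3e-04). The 3 lowered levels did not differ from each other past the threshold. Over all 731 peaks the S412A change at IDH1 was the most negative and the ppm1Δ change the second most negative.

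PYC1 encodes a pyruvate carboxylase, which makes the oxaloacetate that refills the cycle. Its peak held 16048 and 13078 in SL, 22233 and 19266 in ppm1Δ, and 14884 in S412A, against 28070 and 32227 in wild-type YPL. The libraries fell into 3 bands without overlap: wild-type YPL on top, ppm1Δ below it, and SL together with S412A at the bottom. Signal fell to 0.482 in SL (log2 -1.05, SE 0.19, limma adjusted p = 2.0e-07) and to 0.495 in S412A (log2 -1.01, SE 0.23, adjusted p = 5.7e-04). The ppm1Δ log2 difference of -0.54 (95% interval -0.91 to -0.17) missed the threshold after adjustment (limma adjusted p = 0.193). Set against SL directly, ppm1Δ was higher (log2 0.51, limma adjusted p = 0.0154).

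COR1 encodes a core subunit of ubiquinol-cytochrome c reductase, the cytochrome bc1 complex of the respiratory chain. Its peak held 11402 and 9319 in SL, 14345 and 11855 in ppm1Δ, and 9791 in S412A, against 17729 and 20105 in wild-type YPL. Both wild-type YPL libraries stood above all others, and both ppm1Δ libraries stood above SL and S412A. Signal fell to 0.546 in SL (log2 -0.87, SE 0.20, limma adjusted p = 4.2e-05) and to 0.519 in S412A (log2 -0.95, SE 0.24, adjusted p = 0.00266). In ppm1Δ the log2 difference was -0.53 (95% interval -0.92 to -0.15, limma adjusted p = 0.277).

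ALD4 encodes the main mitochondrial aldehyde dehydrogenase, which oxidises acetaldehyde to acetate. Its peak held 27457 and 18198 in SL, 21467 and 18186 in ppm1Δ, and 14823 in S412A, against 24173 and 27088 in wild-type YPL. The first SL library was the highest of all 7 and the second lay below both wild-type YPL libraries, so that SL overlapped wild type, while ppm1Δ and S412A lay below it. Signal fell in S412A to 0.579 (log2 -0.79, SE 0.23, limma adjusted p = 0.00851). The log2 difference was -0.20 in SL (95% interval -0.56 to 0.17, limma adjusted p = 0.37) and -0.37 in ppm1Δ (-0.73 to -0.01, adjusted p = 0.754). Each SL library alone gave another picture: leaving out the second turned the SL difference to 0.10 (limma adjusted p = 0.683), and leaving out the first made it -0.49 (adjusted p = 0.0272). With quantile normalization the fall passed at log2 -0.20 (limma adjusted p = 0.00976).

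ALD6 encodes the cytosolic aldehyde dehydrogenase, the other main source of acetate. Its peak held 22112 and 14815 in SL, 21095 and 17147 in ppm1Δ, and 12572 in S412A, against 22257 and 26944 in wild-type YPL. Wild-type YPL libraries were the highest, but the first SL library fell short of the lower of them by less than 1%. Signal fell in S412A to 0.513 (log2 -0.96, SE 0.23, limma adjusted p = 0.00124). The fall in SL, to 0.739 (log2 -0.44, SE 0.19, limma adjusted p = 0.0373), rested on single libraries. Without the second SL library it was -0.15 (limma adjusted p = 0.549), without the second wild-type YPL library -0.30 (adjusted p = 0.449), and without the first wild-type YPL library -0.57 (adjusted p = 0.114). Leaving out the first or the second ppm1Δ library, which changes only the estimate of spread, gave adjusted p = 0.14 and 0.142. In ppm1Δ the log2 difference was -0.36 (95% interval -0.74 to 0.01, limma adjusted p = 0.856).

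ACS1 encodes an acetyl-CoA synthetase, which joins acetate to coenzyme A and whose gene is known for repression by glucose. Its peak held 13054 and 9089 in SL, 8072 and 6905 in ppm1Δ, and 6027 in S412A, against 7804 and 9526 in wild-type YPL. The first SL library was well above all others, the second lay between the wild-type YPL values, and S412A was the lowest. None of the comparisons with wild-type YPL passed: the log2 difference was 0.34 in SL (95% interval -0.03 to 0.70, limma adjusted p = 0.104), -0.21 in ppm1Δ (-0.57 to 0.16, adjusted p = 0.997) and -0.52 in S412A (-0.96 to -0.07, adjusted p = 0.0849). The SL difference was 0.60 without the second SL library (limma adjusted p = 5.5e-04) and 0.08 without the first (adjusted p = 0.701). With libraries centred on their median it was 0.40 and passed (limma adjusted p = 0.00315). Both ppm1Δ and S412A were lower than SL (log2 -0.55 and -0.85, limma adjusted p = 0.00902 and 0.00116).

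**Figure D2:**
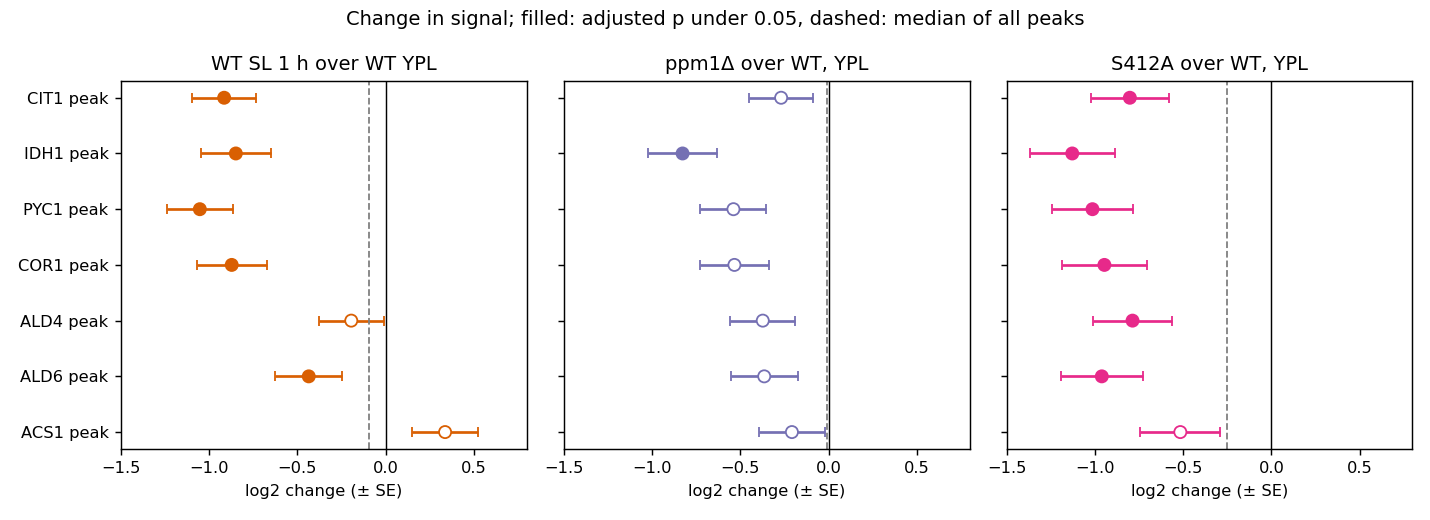
Log2 change in signal at the 7 peaks against wild type in YPL, with the SE of the limma fit as bars; filled points passed an adjusted p of 0.05 over all 731 peaks. The dashed line marks the median change of all peaks (-0.09 in SL, -0.01 in ppm1Δ, -0.25 in S412A), and only the ACS1 point in SL lies to its right.

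The first comparison asked how Rph1 occupancy at these genes differed 1 h after the move to SL. The peaks of the cycle, of its refilling step and of the respiratory chain (CIT1, IDH1, PYC1 and COR1) all fell, to between 0.482 and 0.555 of the YPL level. Of the peaks of the acetate route, ALD6 fell to 0.739, and ALD4 and ACS1 did not pass. In all, 5 of the 7 peaks fell and 0 rose, where 36.7% of all 731 peaks fell and 23.3% rose. That balance over all peaks turned on the SL libraries: 112 rose and 339 fell without the first, and 219 rose and 209 fell without the second, in place of 170 and 268. With all libraries in the fit, the median log2 change of the 7 peaks was -0.85, beside -0.09 over all peaks. In 5 of the 7 every SL library lay below every wild-type YPL library, as at 45.6% of all peaks. The falls at CIT1, IDH1, PYC1 and COR1 held under all 14 settings tried.

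Height goes with the change in this comparison, and the same wild-type YPL libraries set both. Among the 183 peaks tallest per kb in wild-type YPL, to which all but the ACS1 peak belong, 66.1% fell in SL, with a median log2 change of -0.46. ACS1 belongs to the next class of 182 peaks, with a median of -0.33, on the other side of 0 from its own 0.34. The part of height in the falls was not tested.

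Ratios taken within a library do not depend on how libraries are scaled to each other. The CIT1 peak, the highest of the 7 by signal in wild-type YPL, was taken as the common denominator after the values were seen. The log2 ratio of ACS1 to CIT1 was -0.58 and -0.65 in SL, against -1.91 and -1.83 in wild-type YPL, a shift of 1.25. For ALD4 over CIT1 it was 0.50 and 0.35 in SL, against -0.28 and -0.32 in wild-type YPL, and for ALD6 0.18 and 0.05, against -0.40 and -0.33. The CIT1 peak was itself among the 31 most negative changes in SL, so most peaks stood higher relative to it: at 86.6% of the other 730 peaks both SL ratios lay above both wild-type YPL ratios, with a median shift of 0.82. The shifts at ALD4 (0.72) and ALD6 (0.48) were below that median and the shift at ACS1 was above it. IDH1, PYC1 and COR1 shifted by 0.07, -0.14 and 0.04, close to CIT1. Groups of 2 libraries allow no exact two-sided permutation p below 0.333, so these ratios are given without a test. They show unequal change only, and with this denominator a shift above 0 is not particular to the acetate route.

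**Figure D3:**
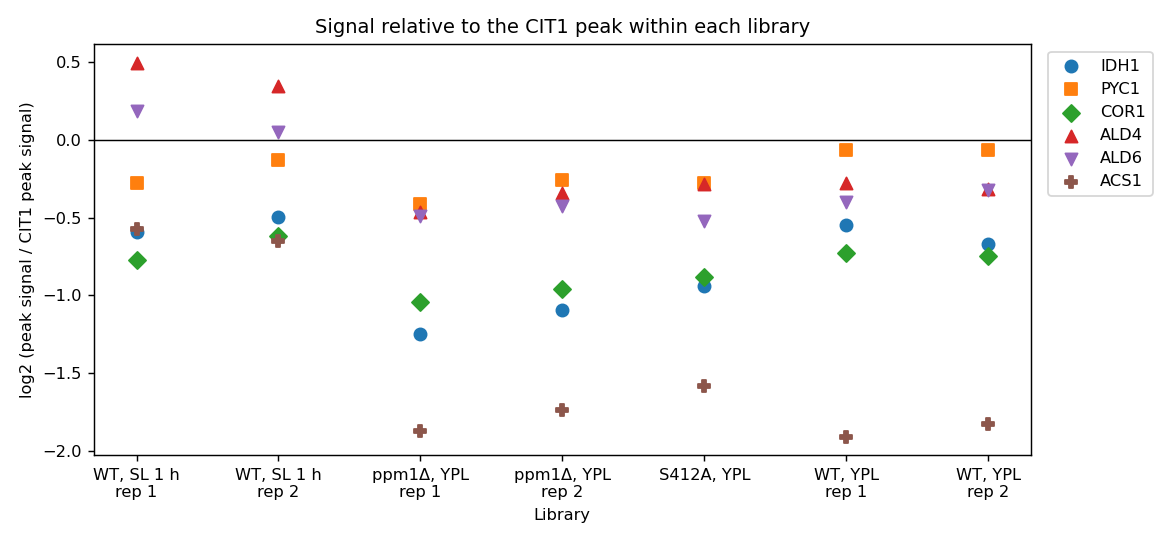
Log2 ratio of the signal at 6 peaks to that at the CIT1 peak in the same library, 1 point per peak and library. ACS1, ALD4 and ALD6 stand higher in both SL libraries than in any other library, and IDH1 is lowest in the ppm1Δ libraries (-1.25 and -1.09).

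The second comparison set the loss of Ppm1 against wild type, both in YPL. The IDH1 peak fell and the other 6 did not pass, though all 7 had a log2 change below 0 in ppm1Δ, as had 52.8% of all peaks. Falls were rare in this comparison, with 1.23% of all peaks called as lower and 0% as higher. The median log2 change at the 7 peaks was -0.37, beside -0.01 over all peaks and -0.15 in the tallest class. At 5 of the 7, all but CIT1 and ACS1, both ppm1Δ libraries lay below both wild-type YPL libraries, as at 18.9% of all peaks. Within libraries the log2 ratio of IDH1 to CIT1 was -1.25 and -1.09 in ppm1Δ, against -0.55 and -0.67 in wild-type YPL, a shift of -0.56. At PYC1, COR1, ALD4 and ALD6 both ppm1Δ ratios also lay below both wild-type YPL ratios, with smaller shifts (-0.27, -0.27, -0.10 and -0.10). At ACS1 they did not (shift 0.06). Both ppm1Δ ratios to CIT1 lay below both wild-type YPL ratios at 4.11% of the other 730 peaks, and the median shift over them was 0.26.

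The count in ppm1Δ depended on scaling and on single libraries. With libraries centred on their median, IDH1, PYC1 and COR1 passed as lower, while 4 peaks of all 731 were higher and 29 lower. With quantile normalization ALD4 passed too, with 13 higher and 33 lower over all peaks. Without the first or the second wild-type YPL library the IDH1 change was -0.87 or -0.79 (limma adjusted p = 0.414 and 0.999), and without the first or the second ppm1Δ library -0.93 or -0.73 (adjusted p = 0.416 and 0.999), so the call needed all 4 libraries while the size of the change moved little. Without the first or the second SL library, which changes only the estimate of spread, PYC1 (limma adjusted p = 0.0418 and 0.0468) and COR1 passed beside IDH1.

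The third comparison set S412A, from 1 library, against wild type in YPL. All 7 peaks were lower in S412A, and 6 passed, all but ACS1. IDH1 fell most and ALD4 least of the 6, to 0.457 and 0.579. Over all peaks 17.5% passed as lower and 1.92% as higher, and the median log2 change at the 7 peaks was -0.95, beside -0.25 over all peaks. The S412A value was below both wild-type YPL values at all 7, as at 82.4% of all peaks. Of the peaks in the tallest class 55.7% fell, and that class had a median log2 change of -0.53. The S412A library also had the smallest share of reads in peaks, 18.6%, and the part of that share and of peak height in these falls was not tested.

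Centring each library on its median takes out a shift common to all peaks of the S412A library. The log2 change at CIT1 moved with it from -0.80 to -0.57. The same 6 peaks then still passed, with log2 changes of -0.55 (ALD4) to -0.89 (IDH1), and ACS1 stood at -0.28 (limma adjusted p = 0.15). Over all peaks that scaling gave 41 higher and 83 lower, and quantile normalization 68 higher and 90 lower, in place of 14 and 128. The spread of the S412A group was taken from the other groups, and the calls hung on it. Without the first wild-type YPL library only PYC1 passed, and without the second none of the 7 did. None passed either without the first or without the second ppm1Δ library, though leaving those out does not alter a change against wild type. Leaving out the first or the second SL library does not alter those changes either, and moves only the estimate of spread. ACS1 too hung on that estimate, and passed as lower in 5 of 14 settings. Among them were the fits without the trend and with only the 2 groups compared, where all 7 peaks passed.

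**Figure D4:**
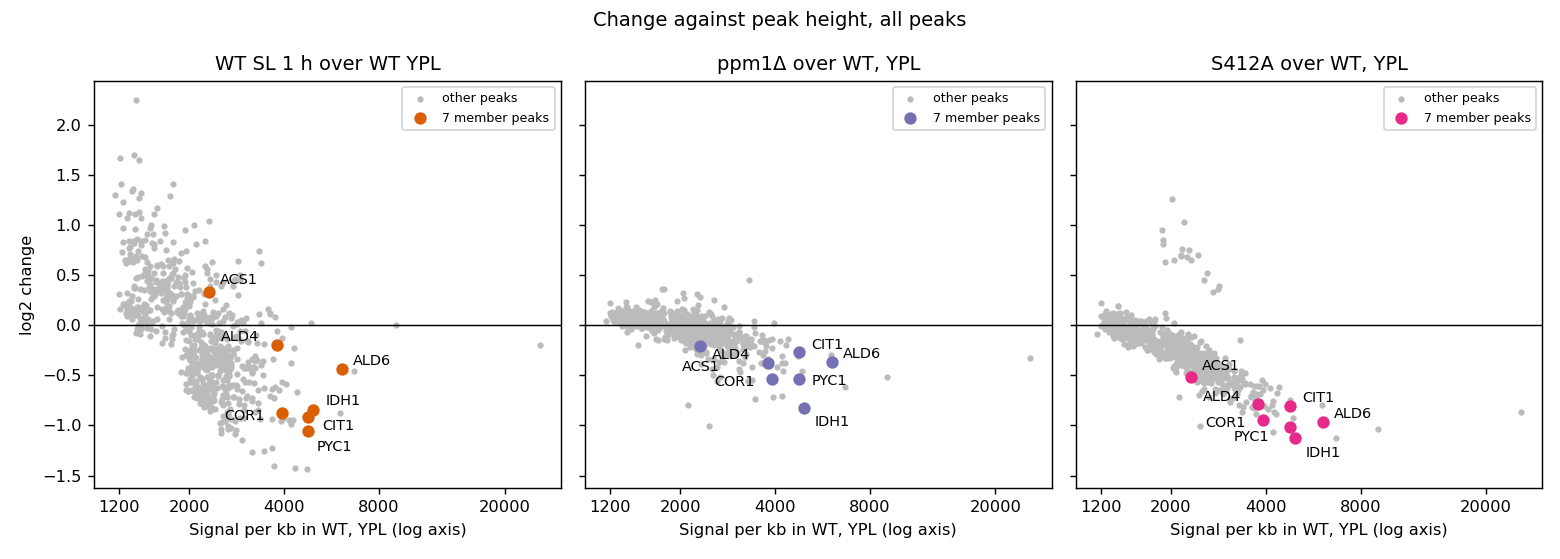
Log2 change against signal per kb in wild-type YPL (log axis) for all 731 peaks, in SL, ppm1Δ and S412A. The 7 peaks (coloured, with gene names) lie at the tall end of each cloud except ACS1 (2313 per kb); the wild-type YPL libraries enter both axes.

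The 3 departures from wild type were also compared with each other. ppm1Δ in YPL was higher than wild type in SL at CIT1 (log2 0.65, limma adjusted p = 0.00128) and PYC1 and lower at ACS1, where 25.4% of all peaks were higher and 21.3% lower. S412A was lower than wild type in SL at ALD4 (log2 -0.59, limma adjusted p = 0.0268) and ACS1 and higher at none, where 28.5% of all peaks were lower and 10.5% higher. For ppm1Δ against SL the calls depended on the groups fitted and on single libraries. With only the 2 groups compared in the fit, CIT1 still passed (limma adjusted p = 0.0316). PYC1 and ACS1 then did not (limma adjusted p = 0.109 and 0.0671). Without the first SL library the log2 difference was 0.87 at CIT1, 0.66 at PYC1, 0.48 at COR1, 0.12 at ALD4 and -0.28 at ACS1. Without the second SL library it was 0.42, 0.37, 0.19, -0.47 and -0.81 at the same peaks. Over all peaks the second SL library lay below the first by a median log2 difference of -0.23. A lower SL level raises these differences, and the part of that library-wide shift in the calls was not tested. Without the first ppm1Δ library the difference was 0.47 at CIT1, 0.41 at PYC1 and -0.66 at ACS1. Without the second ppm1Δ library it was 0.83, 0.62 and -0.43. Leaving out a wild-type YPL library does not alter these differences and moves only the estimate of spread. For S412A against SL, ACS1 passed with each of the other 6 libraries left out in turn, and ALD4 passed in 1 of those fits, without the second SL library (log2 -0.89, limma adjusted p = 7.7e-04).

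With quantile normalization CIT1, PYC1 and COR1 were higher in S412A than in SL, and over all peaks 228 were then higher and 214 lower, in place of 77 and 208. With median-centred libraries 198 were higher and 204 lower, and none of the 7 was higher. At CIT1, PYC1 and COR1 the S412A and SL values lay close together without such scaling (log2 0.11, 0.04 and -0.07), with 95% intervals of -0.32 to 0.55, -0.41 to 0.49 and -0.55 to 0.40. Strain and medium differ together in both comparisons with SL and cannot be told apart.

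Between S412A and ppm1Δ, both in YPL, the S412A value was below both ppm1Δ values at all 7 peaks, by a log2 difference of -0.30 (IDH1) to -0.60 (ALD6), as it was at 89.6% of all peaks. None passed under limma, where 3 of the 7 had an unadjusted p under 0.05, as did 140 of all 731 peaks. Over all peaks 0% passed as lower and 0.274% as higher, and the median log2 difference was -0.24. With quantile normalization PYC1, CIT1, ALD4 and ALD6 passed as lower, and over all peaks 10 were higher and 11 lower in place of 2 and 0. With median-centred libraries 19 were higher and 0 lower, with none of the 7 among them. Without the first or the second SL library ALD6 passed (limma adjusted p = 0.0367 and 0.0426), in fits where 62 and 63 of all peaks passed as lower and 14 as higher. All comparisons with wild-type YPL share its 2 libraries, so the values are set side by side and no overlap is drawn from them.

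As a share of all reads in peaks, the 7 peaks together took 2.18% ± 0.182 (SD, n = 2) in SL, 2.52% ± 0.110 (n = 2) in ppm1Δ and 2.09% in the S412A library (95% Wilson interval 2.08% to 2.11%), against 3.26% ± 0.180 (n = 2) in wild-type YPL. Reads outside peaks do not enter this share, but between replicates of a group it went with the fraction of reads in peaks. The SL library with 19.7% of its reads in peaks had a share of 2.06%, and the one with 24.1% had 2.31%. The order was the same within ppm1Δ and within wild-type YPL. Between groups it was not: the ppm1Δ library with 20.0% of its reads in peaks had a share of 2.44%, above both SL libraries. The part of the fraction of reads in peaks in the shares was not tested. The lowest wild-type YPL library, at 3.13%, was above the highest of the others, a ppm1Δ library at 2.60%.

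Other peaks of the table were compared with the mean profile of the 7 over the 7 libraries, by the root mean square difference of log2 signal after centring each library on its median and each peak on its mean. The nearest were a peak on chromosome XV at 986150 to 990556 (0.0251), one on IV at 145177 to 148345 (0.0471), one on XIII at 553985 to 558451 (0.0575), one on XVI at 296420 to 300843 (0.0845) and one on VII at 345534 to 347095 (0.106), against a median of 0.308 over all peaks. Their log2 changes ran from -0.54 to -0.64 in SL, -0.28 to -0.56 in ppm1Δ and -0.62 to -0.89 in S412A. Of the 7 themselves ALD6 was closest to their mean (0.0857) and ACS1 farthest (0.357). No gene is given to these 5 peaks.

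The 14 peaks next to the 7 along the chromosomes lay 6180 to 80290 bp away. In SL 7 of them fell and 3 rose, the 3 being the left neighbour of COR1 and both neighbours of ACS1 (log2 0.43 and 0.48, limma adjusted p = 0.00143 and 0.0117), beside 36.7% of all peaks that fell and 23.3% that rose. In ppm1Δ 0 of the 14 passed under limma, beside 1.23% of all peaks (45 of all 731 had an unadjusted p under 0.05), and the neighbours of IDH1 had log2 differences of 0.00 and -0.15, against -0.83 at IDH1 itself. In S412A 2 fell and 1 rose, beside 17.5% and 1.92% of all peaks, and the median log2 change of the 14 was -0.35.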

How the data were processed

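Rph1-HA ChIP-seq was measured in 7 libraries. Reads were aligned with Bowtie2 to sacCer2, per the submitters' processing notes. The sources used here do not give the aligner's version, the peak caller, filters, how peaks were merged or the use of input. The deposited signal is never negative and moves in whole steps within a library (100% of values, tolerance 0.001), so it was read as reads per peak scaled to 22000000. That scaling keeps any difference in the share of reads in peaks. CEN.PK sequence can differ from the reference build.

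Log2 signal (pseudocount 0, no value being 0, no filter) was fitted in limma 3.58.1 (R 4.3.3, empirical Bayes with a trend) over all 731 peaks and 7 libraries with group as the only term. P-values were adjusted by Benjamini-Hochberg over all 731 peaks at 0.05. The fit had 3 residual degrees of freedom and infinite prior degrees of freedom, so each peak's SD came from a trend over peaks: 0.18 to 0.20 on the log2 scale at the 7 peaks, against 0.25 to 0.29 of their own at CIT1, ALD4, ALD6 and ACS1 and 0.17 to 0.18 at the others. Intervals of changes are 95% normal ones, and levels relative to wild type are ratios of geometric means. The 7 peaks and the lists were chosen with earlier results of these data known, and all 7 are named in every comparison. The 5 nearest profiles were named by rank. The pathway list needed an annotation of the files' build and was not run, and promoter motifs were not searched, since no sequence was used here.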

Additional observations from a re-analysis of the deposited data

How the results depend on the processing

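In SL against wild-type YPL the count of 5 peaks, all falls, ran from 4 to 7 over all alternatives, with CIT1, IDH1, PYC1 and COR1 falling in each. The 6 with median-centred libraries and the 7 with quantile normalization each hold 1 rise, at ACS1. The log2 change at ALD4 reversed to 0.10 without the second SL library and was -0.49 without the first. In ppm1Δ against wild-type YPL the count of 1 became 3 with median-centred libraries, 4 with quantile normalization, 2 with only those groups fitted, 3 without the trend, 0 to 3 with a library left out, and 2 with both SL libraries left out, an alternative chosen after seeing the data. In S412A against wild-type YPL the count of 6 ran from 0 to 7 with a library left out. For ppm1Δ against SL the count of 3 became 5 with quantile normalization, 1 with only those groups fitted and 0 to 3 with a library left out. For S412A against SL the count of 2 became 5 with quantile normalization, 0 with only those groups fitted and 1 to 3 with a library left out. For S412A against ppm1Δ the count of 0 became 4 with quantile normalization, 1 without both SL libraries and 0 to 1 with a library left out. Where the cause is not shown by the construction of the alternative (fewer libraries or groups), the cause was not tested. Of the log2 changes at single peaks against wild-type YPL, 222 alternatives kept direction and call, 34 lost the call, 23 gained it and 1 reversed.

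Over all 731 peaks, 438 calls in SL ran from 221 to 451 with a library left out. The 9 calls in ppm1Δ ran from 0 to 24, with 33 and 46 under the median-centred and quantile scalings and 21 both with only those groups and without both SL libraries. The 142 in S412A ran from 0 to 283, with 451 when only those groups were fitted and 275 without both SL libraries. The 342 for ppm1Δ against SL ran from 190 to 385 with a library left out. The 285 for S412A against SL ran from 180 to 374, with 442 under quantile normalization and 96 with only those groups. The 2 for S412A against ppm1Δ ran from 0 to 77, with 19 and 21 under the scalings, 13 without the trend, 0 with only those groups and 64 without both SL libraries. The median-centred and quantile scalings went past the ranges for SL, with 544 and 556 calls, and for ppm1Δ against SL, with 482 and 498. Median-centring gave 402 for S412A against SL. The replicate numbers were also entered as a replicate block, for comparisons without S412A, which carries no number. The block left 4 peaks in SL, where ALD6 lost its call (limma adjusted p = 0.0585), 1 in ppm1Δ and 3 for ppm1Δ against SL. Deviations of same-numbered libraries correlated at 0.14, -0.33 and -0.44 over the pairs of groups, so the numbers were not taken to pair the libraries. Count tests on recovered reads were planned but not run, as the deposited unit is a scaled signal. S412A and groups reduced to a single library were assumed to vary like the others.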
